A study of Homo sapiens with 2 samples.

Results

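A droplet library of the Ewing sarcoma line TC71 held 8468 cell barcodes, and 4389 of them (51.8%) carried fewer than 5000 unique molecular identifiers (UMIs, each marking 1 captured RNA molecule) with at most 15% of these from the mitochondrial genome. These few-UMI barcodes were chosen by that rule alone, which uses the mitochondrial genes but none of the other gene classes, out of 13545 barcodes in the TC71 and CHLA9 libraries. They held 5857644 UMIs, or 7.77% of the library, and their summed profile was set beside that of 1729 TC71 barcodes that passed 3 limits together (5000 UMIs or more, 2000 genes or more, no more than 15% mitochondrial) and are called cells here. The cells held 58355173 UMIs.

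TC71 and CHLA9 are established lines of Ewing sarcoma, a bone and soft tissue tumour usually driven by an EWSR1 fusion, most often with FLI1. The labels give neither line a treatment or an introduced allele. TC71 was grown in RPMI-1640 with 10% fetal bovine serum and CHLA9 in IMDM with 20%, cells were lifted with trypsin and strained, and each line gave 1 library that counted the 3′ ends of polyadenylated RNA. With 1 library per line, barcodes are not replicates of a condition, so no p-value is given and every interval is a 95% interval of counting error alone. Whether a barcode of few UMIs stood for a whole cell, part of a cell or free RNA is not given by the counts.

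The few-UMI barcodes were not spread evenly below their limit. The lowest had 847 UMIs, the median was 1088, the upper quartile 1475 and the highest 4967, and 3338 of the 4389 (76.1%) had fewer than 1500. Their median number of genes was 694, against 6047 in the cells, whose median depth was 33370 UMIs. The mitochondrial share was low in most of them, with a median of 2.12% and quartiles of 1.28% and 4.58%, and 2762 (62.9%) lay under 3%. In the cells the median was 9.05%. A further 1480 barcodes with few UMIs had more than 15% mitochondrial UMIs and were not members, with a median of 30.6%. At the UMI limit the ribosomal and membrane protein shares on its sides were near each other. The 83 members of 3500 to 5000 UMIs gave 22.4% of UMIs to ribosomal protein genes and 0.378% to membrane protein genes. The 38 cells of 5000 to 7500 UMIs gave 24.1% and 0.378%. At the mitochondrial limit, the 66 members of 14 to 15% gave 21.7% and 0.410%, and the 50 barcodes of 15 to 16% gave 21.9% and 0.528%. Nuclear long noncoding RNAs were less near at the UMI limit, at 1.10% in those members and 0.755% in those cells. At the mitochondrial limit they took 0.782% and 0.622%.

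**Figure D1:**
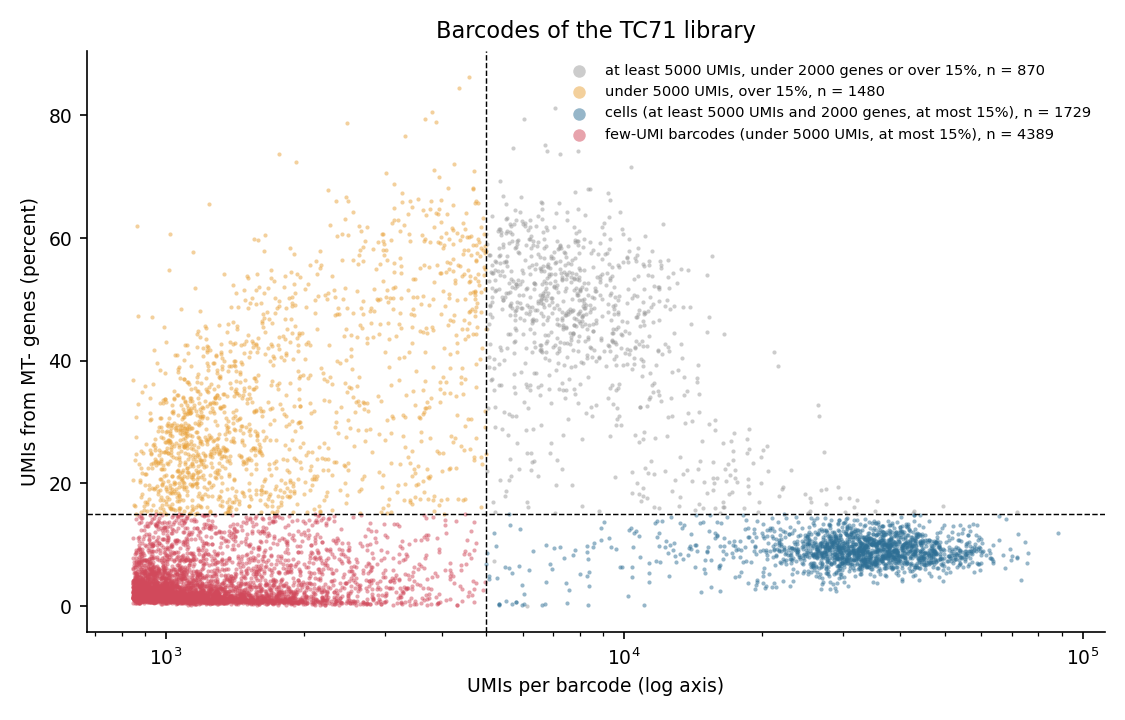
Each point is 1 barcode of the TC71 library, with its UMIs on a logarithmic x axis and its percent of mitochondrial UMIs on the y axis, and colours mark the few-UMI barcodes, the cells and the barcodes in neither group. The 4389 few-UMI barcodes crowd at 847 to 1500 UMIs and at a low mitochondrial percent, apart from the 1729 cells, whose medians are 33370 UMIs and 9.05%.

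The line's own markers were present in the few-UMI barcodes. The orphan nuclear receptor NR0B1, a target of the Ewing fusion, stood at a log2 ratio of few-UMI barcodes over cells of 0.05, and the surface protein CD99 at 314 counts per 1000000 UMIs (CPM) against 402 in the cells, a log2 ratio of -0.35 (-0.42 to -0.29). STEAP1, also a target, had 178 CPM against 239, and FLI1 26.3 against 23. Over the 9 Ewing markers tested, 2 had a ratio above 0, and their summed share was 0.0896% against 0.112%. NPY was not tested, with 5 UMIs in the few-UMI barcodes and 16 in the cells. Defining markers of other cell types were at 0 UMIs in the few-UMI barcodes for red cells (HBA1, HBA2, HBB), leukocytes (PTPRC, CD3E, LYZ, CD74) and endothelium (PECAM1, VWF, CDH5). Of the epithelial list KRT19 and CDH1 were at 0 and EPCAM had 8 UMIs, and of the fibroblast list COL1A1 had 8.37 CPM against 10.2 in the cells, with 11 UMIs of PDGFRB, 7 of LUM and 6 of DCN.

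Of the barcode sequences, 16 occurred in both libraries, 11 of them among the few-UMI barcodes and 3 among the cells. Over 6 genes with at least 100 CPM in CHLA9 cells and at most 2 in TC71 cells, the few-UMI barcodes held 29 UMIs or 4.95 CPM (3.32 to 7.11), the TC71 cells 4.01 CPM and the CHLA9 cells 2535 CPM. The 11 shared barcodes held 0 UMIs of these genes among 13739 UMIs. The few-UMI profile was thus as low in these CHLA9 genes as that of the TC71 cells, within counting error.

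An RNA's place in the cell differs by class, which is what the gene classes compared here follow. MALAT1 and NEAT1 stay in the nucleus, where they mark splicing speckles and paraspeckles. Messages of secreted and membrane proteins are mostly translated on ribosomes bound to the endoplasmic reticulum (ER), those of ribosomal proteins in the cytosol, and those encoded by the mitochondrial genome inside the organelle. Histone messages of the replication-dependent kind are made in S phase and mostly lack a poly(A) tail, so a method that primes on poly(A) sees few of them.

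Across all genes the profiles were close. Of the genes counted, 8305 reached 10 CPM in at least 1 group, and their log2 CPM in few-UMI barcodes and cells had Pearson's r of 0.98 across genes, which are not independent replicates. The median log2 ratio was -0.04, with quartiles of -0.27 and 0.15, and 45.2% of the genes had a ratio above 0. Only 13 genes (0.157%) were at least 2-fold higher in the few-UMI barcodes and 108 (1.3%) at least 2-fold lower, 9 of these on the mitochondrial genome. A gene under 10 CPM in 1 group was compared only through its level in the other. With a minimum of 50 CPM the counts were 1 higher and 27 lower. At a limit of 1.5-fold, 706 genes (8.5%) were lower and 65 (0.783%) higher. Leaving the mitochondrial UMIs out of the totals moved the median to -0.12, so ratios near 0 depend on this choice.

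Ribosomal protein genes, whose products build the ribosome and which make up the most abundant class of messages, were the class with the largest excess in UMIs. They took 24.2% of the UMIs of the few-UMI barcodes against 20.0% in the cells, a log2 ratio of 0.27 (0.268 to 0.273), and 79 of the 82 tested had a ratio above 0, against 45.2% of all genes. The median log2 ratio was 0.28. By barcode, the share had a median of 25% (quartiles 23.3% and 26.5%) in the few-UMI barcodes and 20.1% (18.3% and 21.9%) in the cells, so the upper quartile of the cells lay below the lower quartile of the few-UMI barcodes. Among the most abundant, RPS18 had 7869 CPM against 6664, RPLP1 7100 against 5512 and RPL13 6531 against 5351. The members with the largest ratios were RPL31, at 1106 CPM against 539 (1.04, 1.00 to 1.08), RPL27A, at 2882 against 1557 (0.89), and RPL13A, at 3303 against 1982 (0.74). Among those below 0 were RPL4 (-0.06) and RPS3 (-0.06). Genes of this class have many processed pseudogenes, which can take a part of their reads.

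Most ribosomal protein messages begin with a run of pyrimidines, the 5′ terminal oligopyrimidine (TOP) tract, which ties their translation to growth signals. The starts of the 3 with the largest ratios and of RPL4 are shown, with 10 bases before the RefSeq start and 20 from it, in capitals the run of pyrimidines that begins at the start. They are on GRCh38.p14, RPL31 at chr2:101002279-101002308 (plus strand), RPL27A at chr11:8682782-8682811 (plus), RPL13A at chr19:49487598-49487627 (plus) and RPL4 at chr15:66504836-66504865 (minus).
RPL31: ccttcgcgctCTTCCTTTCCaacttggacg
RPL27A: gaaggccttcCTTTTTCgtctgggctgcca
RPL13A: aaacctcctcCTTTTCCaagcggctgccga
RPL4: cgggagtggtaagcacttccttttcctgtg
The runs were 10, 7 and 7 bases in the first 3, and 0 in RPL4 at this annotated start. Counting as a TOP start a C followed by at least 4 pyrimidines, 42 of the 56 ribosomal protein genes with 1 annotated start had it (75%), against 4.45% of the 12996 genes of all kinds with 1 start. Tested genes with such a start had a median log2 ratio of 0.05 (311 genes) and those without it of -0.03 (4471 genes). With ribosomal protein genes left out the medians were 0.01 and -0.03. Translation factors, also largely TOP messages, took 2.77% of UMIs against 2.48% (0.16), with 14 of 17 above 0: NPM1, listed with them, was at 0.37, the elongation factor EEF1A1 at 0.10, TPT1 at 0.02 and EIF3L at -0.20.

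Messages for membrane proteins were lower in the few-UMI barcodes throughout the list. All 41 tested genes of the 52 listed had a ratio below 0, with a median of -0.52, and 13 of the 41 were at least 1.5-fold lower, against 8.5% of all genes. The class took 0.327% of UMIs against 0.452%, a log2 ratio of -0.47 (-0.49 to -0.45). By barcode its median share was 0.277% (quartiles 0.163% and 0.431%) against 0.448% (0.410% and 0.491%) in the cells. The 4389 few-UMI barcodes held 19168 UMIs of the class, so their quartiles are widened by counting, unlike those of the deeper cells. Thinned to 500 UMIs, the mean count was 1.62 in the few-UMI barcodes and 2.21 in the cells. The glycoprotein BSG had 170 CPM against 296 (-0.80, -0.90 to -0.71), the integrin subunit ITGB1 108 against 168 (-0.64) and the insulin-like growth factor receptor IGF1R 16.4 against 29.0 (-0.82). The lowest ratio belonged to the Notch ligand JAG1, at 4.95 against 11.8 CPM (-1.25, -1.84 to -0.72), the only member at least 2-fold lower. JAG1 reached 10 CPM in the cells alone, so it was tested only through the group where it was higher. Tetraspanins were less reduced, with CD63 at 343 against 424 CPM (-0.31) and TSPAN13 at 400 against 484 (-0.28). The amino acid transporter SLC7A5 (-0.02, -0.25 to 0.21) and the complement regulator CD46 (-0.08, -0.32 to 0.16) were within counting error of 0.

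Secreted proteins and the ER's own machinery were lower by a similar amount. Of the 68 genes listed for secreted proteins, 24 were tested and 22 of them had a ratio below 0, with a median of -0.38. Their summed share was 0.281% against 0.360% (-0.36, -0.38 to -0.33). TIMP1, an inhibitor of matrix metalloproteinases, had 738 CPM against 967 (-0.39, -0.43 to -0.34), and the light chain of class I molecules, B2M, had 1319 against 1625 (-0.30). The binding protein IGFBP2 had 109 against 141 (-0.37), LGALS3BP 19.3 against 42.5 (-1.14) and IGFBP5 5.98 against 13.4 (-1.16). LGALS3BP and IGFBP5 were the 2 genes at least 2-fold lower, and IGFBP5 reached 10 CPM in the cells alone. The growth factor VEGFA (0.07, -0.21 to 0.35) was within counting error of 0.

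In the ER list, 36 of 38 tested genes were below 0, the median was -0.41 and the share 0.568% against 0.727%. The list combines chaperones, folding enzymes, glycosylation and the translocon, the channel through which new proteins enter the ER. RPN2, a subunit of the oligosaccharyltransferase, had 105 CPM against 209 (-0.99), the folding enzyme PPIB 195 against 335 (-0.78) and the chaperone HSP90B1 380 against 565 (-0.57). The 2 genes above 0 were the small translocon subunits SEC61B, at 534 against 484 CPM (0.14, 0.09 to 0.19), and SEC61G, at 272 against 244 (0.16, 0.08 to 0.23). Both encode short proteins anchored by their C-terminal tail.

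**Figure D2:**
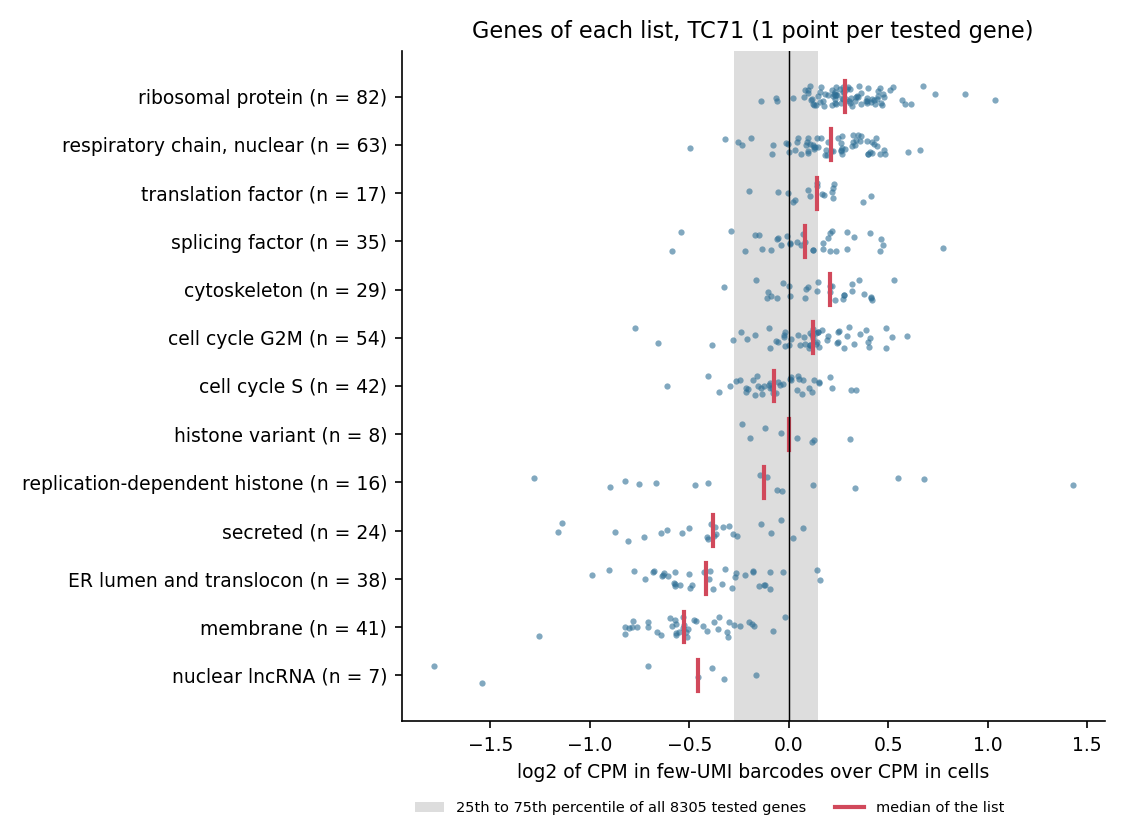
Each point is 1 tested gene of a list, placed by its log2 ratio of CPM in the few-UMI barcodes over that in the cells, with the list's median as a red bar and the range between the quartiles of all 8305 tested genes shaded. The 41 membrane protein genes all lie below 0, 79 of 82 ribosomal protein genes lie above it, and the 7 nuclear RNAs all lie below 0.

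Classes assigned from sequence alone also put secreted and membrane proteins lower than others. Proteins translated from the canonical GENCODE transcript were sorted by hydropathy into those with a hydrophobic N-terminus alone, as signal peptides have, those with a hydrophobic segment further in, and those with neither. The median log2 ratio was -0.34 over 360 genes of the first kind, -0.22 over 1883 of the second and 0.02 over 5866 with neither. By summed share the ratios were -0.24, -0.09 and 0.13, so the class with a hydrophobic segment lay much nearer to 0 than the curated membrane list (-0.47). Of the curated lists, 58 of 68 secreted proteins fell in the first kind and 50 of 52 membrane proteins in the second. Transcript length ran alongside: the medians by quartile of length were 0.10, -0.003, -0.07 and -0.19, from a median length of 1320 bases in the first quartile to 7261 in the last. Spearman's rho across genes was -0.36 for transcript length, -0.25 for the length of the 3′ untranslated region and 0.03 for GC content, given as descriptions over genes of 1 library, which share its depth. Class and length were not separated from each other.

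The share of membrane, secreted and ER messages followed the mitochondrial share among barcodes of few UMIs. Taken over non-mitochondrial UMIs, so that the denominator did not hold the mitochondrial RNA, the membrane share was 0.232% in the 639 members under 1% mitochondrial UMIs, 0.289% in the 2123 of 1 to 3%, 0.391% in the 822 of 3 to 6%, 0.483% in the 453 of 6 to 10% and 0.512% in the 352 of 10 to 15%. In the barcodes beyond the members' limit it went on to 0.817% (15 to 30%), 1.42% (30 to 60%) and 1.79% (60% and over). The secreted share ran from 0.207% to 0.458% over the 5 bins of members and the ER share from 0.445% to 0.877%. Ribosomal protein messages stayed between 24.2% and 25.6% over the same 5 bins, and were at 23.1%, 19.5% and 18.7% outside them. On this scale the cells had 0.498% membrane, 0.396% secreted, 0.800% ER and 22% ribosomal protein messages. Members with 6 to 10% mitochondrial UMIs, the range that holds the cells' median, thus lay near the cells for the membrane (0.483%), secreted (0.410%) and ER (0.813%) classes and above them for the ribosomal proteins (24.2%). Histone messages did not follow, at 0.107% in the lowest bin, 0.101% at 6 to 10% and 0.0897% in the highest bin of members, against 0.202% in the cells.

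Single genes of these classes were read on the same bins. On the scale of CPM without mitochondrial UMIs, TIMP1 had 504 in the lowest mitochondrial bin and 1361 in the highest of the members, and 4254 at 60% and over. HSP90B1 ran from 237 to 706 and STEAP1 from 141 to 273. RPS18 had 7964 and 8519 in those bins, JPT1, listed among the G2M genes, 1192 and 1154, and the translocon subunit SEC61B 586 and 566. The 3 messages of secreted, ER and membrane proteins were thus higher at the upper end of the mitochondrial share, and RPS18, JPT1 and SEC61B changed little, SEC61B although its list is the ER one. The part of the mitochondrial share in the class differences was not tested.

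Along the UMI count the differences between the classes did not fade steadily. The ribosomal protein share was 25.6% of UMIs in barcodes of 750 to 1000 UMIs, 24.5% at 1000 to 1500, 23.3% at 1500 to 2500 and 22.5% at 2500 to 5000. In the bins above the limit, which hold every barcode of at most 15% mitochondrial UMIs, it was 23.7% at 5000 to 10000, 20.2% at 10000 to 20000 and at 20000 to 40000, and 19.7% above. The membrane share was 0.320%, 0.305%, 0.342% and 0.366% in the 4 bins of members, 0.393% at 5000 to 10000 and between 0.445% and 0.486% in the bins above. Next to the limit, at 5000 to 10000 UMIs, the ribosomal protein share thus lay within the range of the members' bins. The membrane share there lay between the members' bins and the deeper ones. Against the 176 cells of 5000 to 20000 UMIs, most of them above 10000, the log2 ratio was 0.21 for ribosomal and -0.52 for membrane protein genes.

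**Figure D3:**
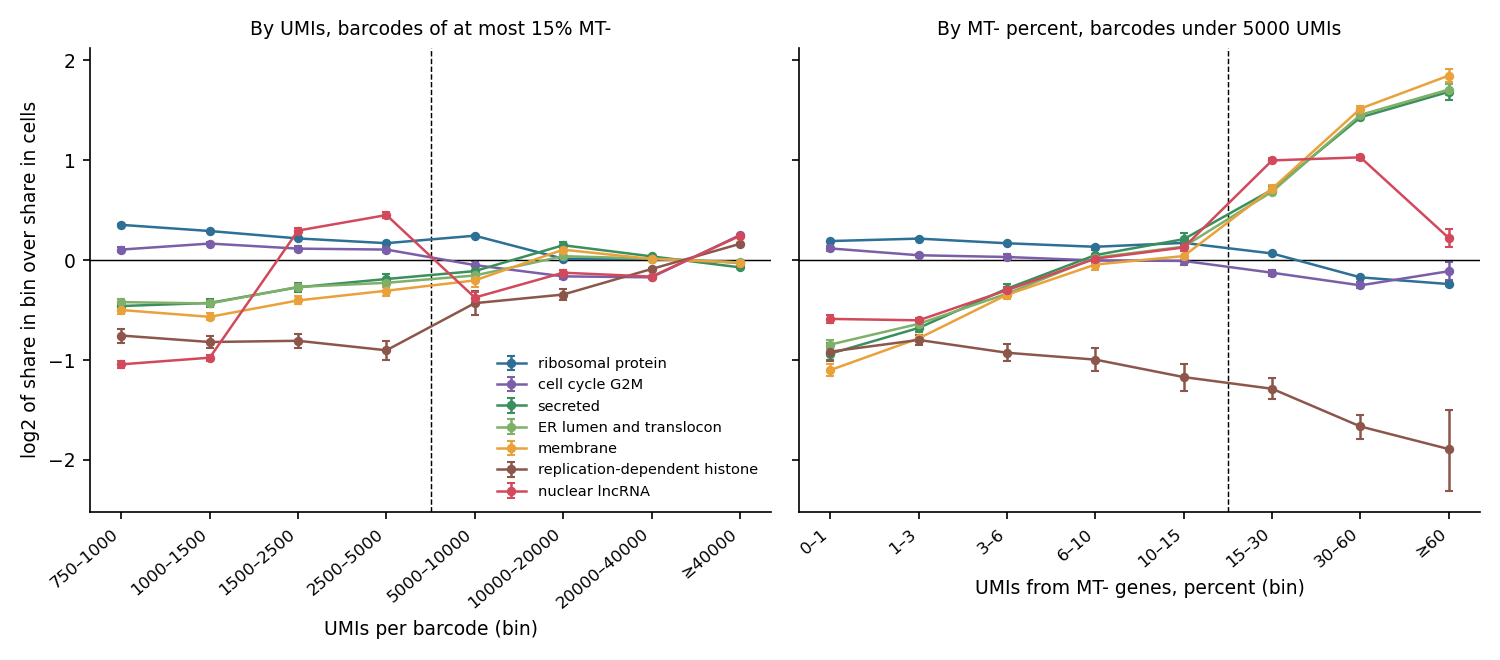
The log2 ratio of each class's share in a bin over its share in the cells is drawn by bin of UMIs per barcode (left, share of all UMIs) and by bin of mitochondrial percent (right, share of non-mitochondrial UMIs), with 95% counting intervals as bars and a dashed line at the members' limit. Membrane, secreted and ER shares are higher in each bin of higher mitochondrial percent, from 0.232% to 0.512% for membrane protein genes over the members, while the ribosomal protein share stays at 24.2% to 25.6%.

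Nuclear long noncoding RNAs were lower in the sum of the few-UMI barcodes, but not at every depth within them. Their share was 0.412% of UMIs at 750 to 1000 UMIs and 0.432% at 1000 to 1500, below the 0.85% of the cells. It was 1.04% at 1500 to 2500 and 1.16% at 2500 to 5000, above the cells. With barcodes of at least 2% MALAT1, itself a member of the list, left out, no such rise was seen. The share was then 0.409%, 0.352%, 0.356% and 0.333% in the same order of depth. Of the 15 listed, 11 matched a gene and 7 were tested, all 7 with a ratio below 0 and a median of -0.46. The summed share was 0.689% against 0.85% (-0.30, -0.32 to -0.29). NEAT1 (chr11:65422774-65445540, plus strand) had 284 CPM against 979, a log2 ratio of -1.79 (-1.86 to -1.71), and KCNQ1OT1 (chr11:2597308-2700003, minus strand), which silences the imprinted cluster it lies in, had 39.9 against 116 (-1.54, -1.74 to -1.36). These were the 2 genes of the list at least 2-fold lower. FTX had 21.9 against 35.6 (-0.71), PVT1 40.3 against 55.3 (-0.46), DLEU2 27.8 against 36.4 (-0.39) and JPX 67.9 against 85.1 (-0.33). MALAT1 (chr11:65497640-65508073, plus strand) held most of the class and differed least, at 6398 CPM against 7172 (-0.16, -0.18 to -0.15). Without MALAT1 the list's log2 ratio was -1.42. Among all tested genes annotated as lncRNA, 17 of 163 (10.4%) were at least 2-fold lower, against 1.12% of protein-coding genes, and 4 (2.45%) at least 2-fold higher. These 4 reached 10 CPM in the few-UMI barcodes alone. Any of the 17 under 10 CPM in the few-UMI barcodes was likewise tested only through its level in the cells. Cytoplasmic lncRNAs, mostly hosts of small nucleolar RNAs, took 0.0863% of UMIs against 0.0826%, with 3 of 6 above 0, and their log2 ratio changed from 0.06 to -0.02 with mitochondrial UMIs left out. SNHG8 was at 0.19, ZFAS1 at 0.16 and NORAD at -0.52.

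A small number of barcodes held a large part of the MALAT1 sum. By barcode the MALAT1 share had a median of 0.317% in the few-UMI barcodes and 0.579% in the cells, and 161 few-UMI barcodes had no MALAT1 UMI. Yet the highest share was 44.2% in a few-UMI barcode and 7.32% in a cell. At a limit of 2%, which was chosen after the values were seen, 118 of the 4389 few-UMI barcodes (2.69%, Clopper-Pearson 2.23 to 3.21) were MALAT1-high and held 18483 of the 37475 MALAT1 UMIs (49.3%) with 4.08% of all UMIs. Of them, 23 had at least 10%. In the cells 32 of 1729 (1.85%) passed 2% and 0 passed 10%, and in the few-UMI barcodes over 15% mitochondrial UMIs 124 of 1480 (8.38%). The MALAT1-high barcodes had a median of 1848 UMIs, 1184 genes and 3.87% mitochondrial UMIs, against 1079, 688 and 2.10% in the other few-UMI barcodes.

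**Figure D4:**
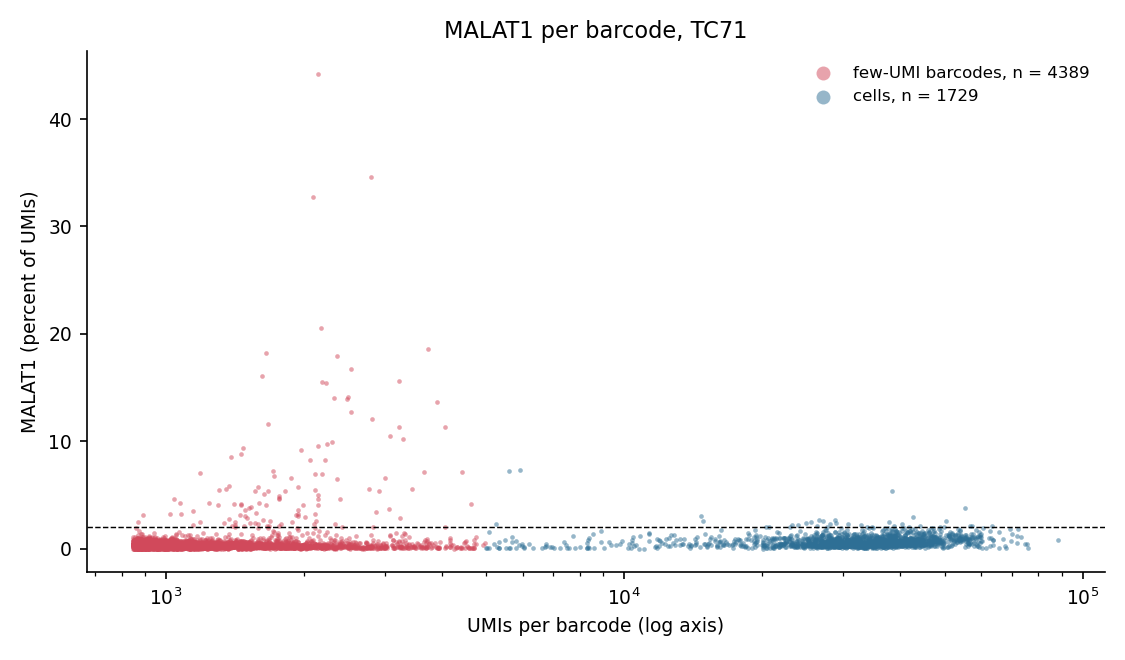
Each point is 1 few-UMI barcode or cell of TC71, with its UMIs on a logarithmic x axis, its percent of UMIs from MALAT1 on the y axis and a dashed line at 2%. Most few-UMI barcodes lie under the cells' median of 0.579%, and 118 of 4389 lie above the limit, reaching 44.2%.

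Apart from MALAT1, which defined them, the MALAT1-high barcodes had other nuclear RNAs at high levels and stood on the other side of the cells from the rest of the few-UMI barcodes. With MALAT1 left out of list and totals, nuclear lncRNAs took 0.610% of UMIs in the 118 barcodes, 0.0276% in the other 4271 and 0.133% in the cells. NEAT1 had 4349 CPM, 126 and 986 in the same order, KCNQ1OT1 had 770, 11.4 and 117, and FTX had 326, 10.0 and 35.9. PVT1, at 245, 32.5 and 55.7, ran the same way. POLR2J3, a protein-coding gene with near-identical paralogs, had 1087, 30.5 and 248. In each of these genes the MALAT1-high barcodes lay above the cells and the other few-UMI barcodes below them.

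The membrane, secreted and ER classes showed the same order. Without MALAT1 the membrane share was 0.828% in the MALAT1-high barcodes, 0.310% in the rest and 0.456% in the cells, the secreted share 0.583%, 0.271% and 0.363%, and the ER share 1.18%, 0.548% and 0.732%. Many genes differed between the MALAT1-high barcodes and the rest. Of 2324 genes with at least 100 CPM in either group, 646 were at least 2-fold higher in the MALAT1-high barcodes and 148 at least 2-fold lower. Genes under the minimum in 1 group, APP and AURKA among them, were compared only through the group where they were higher. Both counts include such genes, and ARHGAP11B, at 104 against 0.893 CPM, rested on 23 UMIs in the MALAT1-high barcodes. Single genes are to be read beside these counts. The amyloid precursor APP had 575 CPM against 82.0 and 145, and the ER chaperone HSPA5 607 against 149 and 247. Ribosomal protein genes ran the other way, at 15.2%, 24.7% and 20.2%, as did the cytoskeleton list at 1.22%, 2.14% and 1.96%. SEC61B went with these, at 331 CPM, 546 and 488. Splicing factors were higher in the MALAT1-high barcodes (2.04%) than in the rest (1.57%) or the cells (1.47%). Lower in the MALAT1-high barcodes than in the other few-UMI barcodes were SDHB, a subunit of respiratory complex II, at 63.4 against 223 CPM, the small GTPase RHOA at 118 against 358 and the mitotic kinase AURKA at 68.0 against 190. With the 118 left out, the log2 ratio of the nuclear lncRNAs over the cells was -1.22 in place of -0.30, and 277 genes were at least 2-fold lower in place of 108. MALAT1 is the largest member of that list, so leaving out barcodes by it lowers the ratio by construction. The cells were not trimmed in the same way, and their 32 barcodes of at least 2% MALAT1 were kept.

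The cell cycle lists differed little. S phase genes took 0.495% of UMIs in the few-UMI barcodes and 0.489% in the cells (0.02, 0.00 to 0.04), a ratio whose sign changed to -0.06 with mitochondrial UMIs left out, and 17 of 42 were above 0. G2 and M phase genes took 1.08% against 0.993% (0.13, 0.12 to 0.14) with 39 of 54 above 0. Together the lists had 56 of 96 above 0, against 45.2% of all genes, and a log2 ratio of 0.09 that was 0.01 without mitochondrial UMIs. In the S list the highest was NASP, a histone chaperone, at 784 CPM against 619 (0.34), with the sliding clamp PCNA at 0.13 and TYMS at -0.03. The lowest was CDCA7 at 59.6 against 91.0 (-0.61). In the G2M list CDC20, an activator of the anaphase-promoting complex, had 188 against 124 (0.59, 0.50 to 0.69), HMGB2 625 against 445 (0.49) and TOP2A 342 against 273 (0.33). The lamin B receptor LBR, a membrane protein, was lowest at 63.7 against 109 (-0.78), followed by the proliferation marker MKI67, at 194 against 306 (-0.66).

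The spread of these lists over barcodes was smaller than in the cells. When every barcode was thinned to 500 UMIs, the variance of the G2M count was 1.25 times that of binomial sampling in the few-UMI barcodes and 1.72 times in the cells, that of the S count 1.00 and 1.15 times, and that of the histone count 1.10 and 1.6 times. Membrane counts spread more in the few-UMI barcodes (1.43 times, against 1.08) and so did ER counts (1.52 and 1.12). Nuclear lncRNA counts spread most, at 23 times against 3.23, and at 1.49 times with the MALAT1-high barcodes left out. The number of genes detected at this depth was nearly the same, with a median of 377 in the few-UMI barcodes and 373 in the cells. At full depth the G2M share had quartiles of 0.817% and 1.32% in the few-UMI barcodes and 0.653% and 1.22% in the cells.

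Replication-dependent histone genes took 0.105% of UMIs in the few-UMI barcodes and 0.184% in the cells, a log2 ratio of -0.81 (-0.85 to -0.77), and 1 gene carried the difference. HIST1H4C (chr6:26103933-26104337, plus strand), which encodes histone H4, had 522 CPM against 1268 (-1.28, -1.33 to -1.23), and without it the list's ratio was -0.12. Of 16 tested members 5 were above 0, and the median was -0.13. The linker histones HIST1H1E (70.3 against 118 CPM, -0.75) and HIST1H1C (146 against 157, -0.11) were below 0, and HIST2H2AC (43.7 against 34.6, 0.34) and HIST1H2AH (28.5 against 10.6, 1.43) above it. The share was 0.0951% in the median few-UMI barcode and 0.107% in the median cell, whose upper quartile was 0.304% against 0.165%. The 4389 few-UMI barcodes held only 6124 histone UMIs, so their quantiles move in steps of single UMIs, unlike those of the deeper cells. Thinned to 500 UMIs, the mean histone count was 0.53 in the few-UMI barcodes and 0.90 in the cells, with a median of 0 in both. It lay between 0.098% and 0.109% in all 4 UMI bins of the members and ran from 0.136% to 0.205% over the bins above the limit. Genes of this family are near-identical in places, and a method that primes on poly(A) sees only part of their RNA, so the values of single members are uncertain. Histone variants, which are polyadenylated, took 0.592% against 0.570% (0.05, or -0.03 without mitochondrial UMIs), with H2AFZ at 0.12, H3F3A at 0.04 and H2AFX at 0.31.

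The other lists differed by small amounts, which shrank with mitochondrial UMIs left out of the totals, to 0.12 for the respiratory chain, 0.02 for the cytoskeleton, 0.03 for splicing factors and 0.06 for stress genes. Nuclear-encoded subunits of the respiratory chain took 3.06% of UMIs against 2.67% (0.20), with 54 of 63 above 0, among them NDUFA3 (126 CPM against 79.9, 0.66) and ATP5MC3 (0.27). NDUFB9 was at -0.50. The mitochondrially encoded genes, whose sum the rule used, are given as a description: they took 3.81% against 9.12%, and single genes ran from -1.84 for MT-ND4 to -0.05 for MT-ND6. Cytoskeleton genes took 2.09% against 1.95% (0.10), with the actin-binding TMSB4X at 0.53, TMSB10 at 0.32, ACTG1 at 0.08, TUBA1B at 0.00 and CFL1 at -0.32. Splicing factors took 1.58% against 1.46% (0.11), with HNRNPA1 at 0.42, HNRNPC at 0.01 and the helicase DDX17 at -0.59. Stress genes took 0.829% against 0.748% (0.15), with DDIT4 at 0.67, HSP90AA1 at 0.22, HSPA8 at -0.12 and JUN at -0.21, so the list did not move as a block.

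Among all genes of at least 50 CPM, those with the largest positive ratios beyond the ribosomal protein genes were ROMO1 (168 CPM against 94.6, 0.83), a small protein of the inner mitochondrial membrane, CTNNB1 (107 against 60.7, 0.82), which encodes beta-catenin, and the core splicing protein SNRPD2 (595 against 347, 0.78). PFDN6, a prefoldin subunit, followed at 119 against 74.4 (0.67), with IFITM2, an interferon-induced membrane protein, at 120 against 75.5 (0.67), LIN7C at 93.6 against 60.2 (0.64) and MTRNR2L12 at 103 against 66.1 (0.64). MTRNR2L12 is a near-copy of the mitochondrial MT-RNR2 and may share its reads. The lowest ratios belonged to POLR2J3, a copy of an RNA polymerase II subunit gene (70.2 against 246, -1.81), NEAT1, KCNQ1OT1 and RRBP1 (20.3 against 57.5, -1.50), a ribosome-binding protein of the ER. AKAP1, which anchors protein kinase A and messages to the outer mitochondrial membrane, had 27.8 against 74.2 (-1.41), SEC63, part of the ER translocon, 49.0 against 110 (-1.17), and DYNC1H1, the heavy chain of cytoplasmic dynein, 205 against 448 (-1.13). FADS1, a desaturase of the ER membrane, was at -1.13, the zinc finger gene ZNF37A at -1.20, and the antisense transcripts SLC16A1-AS1 and GABPB1-AS1 at -1.45 and -1.16. Without strand, reads of an antisense gene and its partner cannot be told apart, and strand handling was not given in the sources used here beyond the counting program.

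The 13 genes at least 2-fold higher were few and, apart from RPL31, low. All but RPL31, LRRC75A, SYNC and HIST1H2AH were under 10 CPM in the cells. Those under it were thus compared only because of their level in the few-UMI barcodes, where they were higher. H3.Y, which encodes a primate histone H3 variant, had 66 UMIs in the few-UMI barcodes and 48 in the cells, or 11.3 against 0.823 CPM (3.78, 3.22 to 4.34), and it was found in 44 of the 4389 few-UMI barcodes. CCNA1, the germline A-type cyclin, had 28.3 against 7.63 CPM (1.89), with up to 17 UMIs in 1 barcode. MBD3L2B had 22.7 against 8.45 (1.43) and MBD3L2 14.2 against 5.74 (1.30), from a cluster of near-identical copies among which reads can be split. LRRC75A (48.7 against 18.4, 1.40), SYNC (39.6 against 16.7, 1.24) and HIST1H2AH were the other named protein-coding genes. The remaining 5 were AC011603.2 (2.55), AC015802.6 (2.34), AL356599.1 (1.98), AC005921.2 (1.47) and AC005523.2 (1.08), each between 10.2 and 30.7 CPM in the few-UMI barcodes.

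H3.Y, MBD3L2 and MBD3L2B were not evenly spread. In the few-UMI barcodes they had 282 UMIs together in 213 barcodes, of which 190 held 1 UMI and 9 held at least 3, those 9 with 64 of the UMIs. The highest barcodes held 21 of the 3 genes' UMIs among 1433 UMIs in all, with 0.977% mitochondrial, and 20 among 4692, with 0.639%. In the cells 876 UMIs lay in 200 barcodes, 68 of them with at least 3, which held 719. In both groups a small number of barcodes carried several UMIs of these genes, and in the few-UMI barcodes most of the UMIs came 1 to a barcode.

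CHLA9 offered few barcodes of the same kind. The rule found 82 in its library, with 104266 UMIs in all, and 4524 cells. Membrane (-0.45, -0.58 to -0.32), secreted (-0.55), ER (-0.59) and histone genes (-1.61) were lower in these barcodes than in CHLA9 cells, as in TC71, and G2M genes (0.30) and splicing factors (0.30) higher. Ribosomal protein genes were lower instead, at 13.0% of UMIs against 17.1% (-0.40, -0.42 to -0.37), and nuclear lncRNAs higher, at 5.19% against 1.96% (1.41, 1.37 to 1.44). Of the 82, 41 had at least 2% MALAT1, and so had 1256 of the 4524 CHLA9 cells (27.8%). The lines also differed in medium, serum and sequencing, and with 1 library each these cannot be told apart from the line. No test was made of the difference between these lines.

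**Figure D5:**
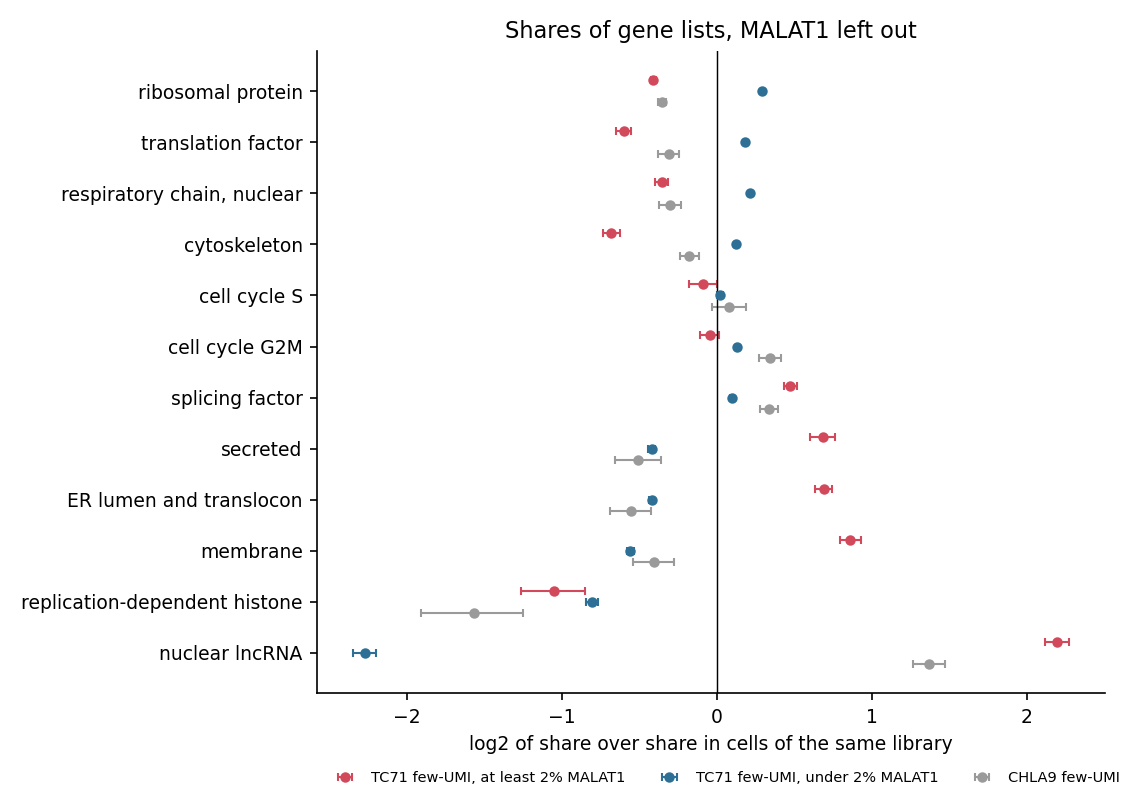
Log2 ratios of each gene class, with MALAT1 left out, over the cells of the same line are drawn for the MALAT1-high and the other few-UMI barcodes of TC71 and for the few-UMI barcodes of CHLA9, with 95% counting intervals as bars. The MALAT1-high TC71 barcodes and the rest lie on opposite sides of 0 for nuclear lncRNAs and for ribosomal, membrane and secreted protein genes, and the 82 CHLA9 barcodes lie with the MALAT1-high ones for ribosomal protein genes (-0.35).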

How the data were processed

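Per the submitters' notes, the authors ran Cell Ranger 3.1.0 against hg38, and the deposited values are raw UMI counts of each gene in each barcode, not normalized. The deposited barcodes are those that its cell calling kept, with at least 847 UMIs in TC71, so barcodes with fewer were not seen, and doublets were not removed. CHLA10, another line of the study, and the xenografts were not analysed here.

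Counts were summed over the barcodes of each group and scaled to 1000000 UMIs (CPM). Genes with at least 10 CPM in 1 group were compared as a log2 ratio with an exact conditional binomial 95% interval. Shares had exact Clopper-Pearson intervals, and a count under 3 gave no ratio. Genes of the early embryo under 10 CPM were given ratios as descriptions. These cover counting error only, and PCR was collapsed by UMI. By rule, the text names 12 genes at each end of the ratios among those of at least 50 CPM, the 3 most abundant of each list, its highest and lowest, and the cell type markers. Other genes were named after their values were seen. The members and the gene lists were chosen with earlier results of these data known. Barcodes were thinned to 500 UMIs with a seed of 1. Transcript features came from GENCODE 44 (8278 of 8289 tested genes off the mitochondrial genome matched), starts from RefSeq. Python 3.11.15, numpy 2.4.6, scipy 1.17.1, pandas 2.3.3 and biopython 1.88 were used, and the ratio and thinning steps were tested on simulated data. Alternatives covered the limits, the totals, the gene minimum and the choice of cells.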

Additional observations from a re-analysis of the deposited data

Results flagged for a closer look

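For 6 gene classes the few-UMI barcodes of CHLA9 stood on the other side of their cells from those of TC71. The log2 ratio of the UMI share was 1.41 in CHLA9 and -0.30 in TC71 for nuclear lncRNAs, -0.40 and 0.27 for ribosomal protein genes, and -0.35 and 0.16 for translation factors. It was -0.38 and 0.05 for histone variants, -0.34 and 0.20 for the nuclear-encoded respiratory chain, and -0.22 and 0.10 for the cytoskeleton. The difference was not tested, since each line has 1 library and the CHLA9 values rest on 82 barcodes. Without MALAT1 the nuclear lncRNAs of CHLA9 were at 1.37, and of the 82 barcodes 41 had at least 2% MALAT1.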

How the results depend on the processing

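No paired analysis was possible because only 1 library was made of each line, and no p-value was computed. The counts of genes at least 2-fold higher and lower and the ratios of 6 lists were recomputed, giving 108 values. The lists were ribosomal, membrane, secreted, nuclear lncRNA, histone and cell cycle. Of the 108, 42 stayed within the main value's interval or within 1.5 times the main count, and 66 moved. The counts, with 15 alternatives each, cannot change sign, and 0 of the ratios did. Of the other lists, the S, cytoplasmic lncRNA and histone variant ratios changed sign with mitochondrial UMIs left out, to -0.06, -0.02 and -0.03. The MALAT1 limits, the removal of shared barcodes, the classes by hydropathy and the list without HIST1H4C were chosen after seeing the data. Classes from RefSeq protein sequences were not run, for lack of that table.

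Of the counts, the 13 genes at least 2-fold higher became 24 against cells of 5000 to 20000 UMIs, 1 with a minimum of 50 CPM and 3337 with no minimum, where 2877 rest on a floor of 3 counts. The 108 lower became 189, 27 and 568, and 277, 319 and 237 without few-UMI barcodes of at least 2%, 1% and 3% MALAT1.

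Of the log2 ratios, with members under 2500 UMIs ribosomal protein genes were at 0.29, membrane -0.50, secreted -0.39 and nuclear lncRNAs -0.49. With members of 1000 to 5000 UMIs ribosomal were at 0.24, secreted -0.32 and nuclear lncRNAs -0.12. At a limit of 10% mitochondrial UMIs ribosomal were at 0.26, membrane -0.53, secreted -0.43, nuclear lncRNAs -0.38, histones -0.69 and cell cycle 0.10. Without mitochondrial UMIs in the totals they were at 0.19, -0.55, -0.44, -0.38, -0.89 and 0.0109, and without ribosomal UMIs too at 0.25 (ribosomal), -0.49, -0.38, -0.33 and 0.0691 (cell cycle). As the mean over barcodes they were at 0.28, -0.50, -0.42, -0.52, -0.73 and 0.13. Against cells of 5000 to 20000 UMIs they were at 0.21, -0.52, -0.46, -0.14, -0.44 and 0.21, and against cells within 3 median absolute deviations ribosomal were at 0.27.

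In the MALAT1 settings only few-UMI barcodes were left out, and the cells were unchanged. Without barcodes of at least 2% MALAT1 the ribosomal ratio was 0.30, membrane -0.55, secreted -0.41, nuclear lncRNAs -1.22 and cell cycle 0.10. At 1% these were 0.30, -0.57, -0.43, -1.33 and 0.11, and at 3% 0.29, -0.53, -0.40 and -1.14 without cell cycle. Nuclear lncRNAs without MALAT1 were at -1.42 and histones without HIST1H4C at -0.12. The S list alone was at 0.0183 and the G2M list at 0.13. Classes by hydropathy gave -0.0943 for a hydrophobic segment and -0.24 for an N-terminus alone. The cause of these moves was not tested.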

Other observations

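H3.Y and the MBD3L genes are known as genes of the early embryo's genome activation, where the factor DUX4 induces them, and the other genes of that kind were looked up after these values were seen. LEUTX had 14 UMIs in the few-UMI barcodes and 5 in the cells, a log2 ratio of 4.8 (3.25 to 6.63). TRIM43 had 6 and 14 UMIs (2.09, 0.43 to 3.56) and KHDC1L 6 and 8 (2.90, 1.10 to 4.62). PRAMEF1 had 5 and 2 UMIs, ZSCAN4 had 1 and 0, and DUX4 had 0 in both. MBD3L3 had 15 and 132 UMIs (0.18, -0.70 to 0.95) and MBD3L5 22 and 129 (0.76, 0.04 to 1.42). LEUTX, TRIM43, KHDC1L, MBD3L3 and MBD3L5 were under the minimum of 10 CPM in both groups, LEUTX at 2.39 and 0.0857 CPM. Their ratios are descriptions at low counts and are outside the genes compared elsewhere. The intervals cover counting error only, and single barcodes hold several of these UMIs.

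H3.Y and the MBD3L2 genes were also at high counts in a small number of cells: the barcode with the most held 62 UMIs of the 3 genes among 44017 UMIs, with 6.15% mitochondrial. In the few-UMI barcodes 14 held at least 2 of the 3 genes, and 59 of the cells did.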
